A study of Homo sapiens with 66 samples.

Results

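The comparison described here is between 2 forms of the human leukaemia line KBM7 without degrader: cells in which the kinase CDK9 carries a degradation tag (labelled CDK9-dTAG) and wild-type cells. It rests on 6 of the 66 libraries of the series, the 3 CDK9-dTAG and the 3 wild-type libraries whose titles name DMSO, chosen by those titles alone, and it covers all 12515 genes that passed the filter on low counts. Cells of both groups received the solvent DMSO for 6 h and no degrader. The only difference that the labels give is the genotype, CDK9-dTAG against wild-type. The labels do not say whether the tagged line is 1 clone, nor which end of the protein carries the tag, so an effect of the tag and a difference between clones cannot be told apart. Where a further point of comparison is needed, the text uses the DMSO libraries of 8 other engineered lines, in which a subunit of the Mediator complex carries the tag: MED1, MED6, MED10 and MED12, and likewise MED14, MED26, MED28 and MED31 (24 libraries, 3 a line). RNA was measured by 3' mRNA sequencing, which reads the 3' ends of polyadenylated transcripts.

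CDK9 is the catalytic subunit of P-TEFb, which pairs it with cyclin T and phosphorylates RNA polymerase II and the pausing factors, so that polymerases paused near a promoter move into the gene. Part of P-TEFb is held inactive by HEXIM proteins, LARP7 and MEPCE on the 7SK RNA, and part acts within the super elongation complex. A degradation tag lets a compound such as dTAG7 join the tagged protein to a ubiquitin ligase, and the untreated line is the starting point that degradation is measured from. KBM7 comes from chronic myeloid leukaemia and is near-haploid, which makes it a common choice for genome engineering.

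The CDK9 line libraries held 1342241, 2430436 and 3387500 endogenous counts (replicates A, B and C), and the wild-type libraries 3175996, 2502436 and 3143519. Spike-in RNA, added in equal amount to each lysate, made up 0.805 to 0.823% of counts in the CDK9 line and 0.715 to 0.826% in wild-type cells. The log2 ratio of endogenous to spike-in counts was 6.932 ± 0.017 in the CDK9 line and 7.001 ± 0.106 in wild-type cells (SD, n = 3 each), a difference of -0.07 that leaves 95.3% of the wild-type ratio. The groups overlapped, and the two-sided exact permutation p was 0.4, where 3 against 3 libraries cannot give less than 0.1. Levels are given in CPM, the usual counts-per-library scale with each library's spike-in total setting its size, and differences are log2 values of the CDK9 line minus wild type ± SE. Nothing in the labels says that the 3 wells of a group came from separate cultures, and p-values then measure well-to-well spread, which may be technical. The early myeloid genes KIT (53.79 against 55.99 CPM in wild type), GATA2 (77.4 against 68.2 CPM) and CD33 (20.2 against 29.6 CPM) were present in both groups, none of them called. The globin genes HBG2 and HBE1 stayed at or under 1.31 CPM in all 6 libraries. PAX5 and EBF1 of the lymphoid list, described further on, were present as well, and the granule gene MPO was low in both groups. Of 23 granulocyte and monocyte genes 15 were not analysed here, so these markers do not settle the cell type.

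A small set of genes was called between the tagged line and wild type, among them genes of blood cell identity, cell surface proteins and signaling. The edgeR quasi-likelihood test, with adjusted p under 0.05 as the threshold, called 216 of 12515 genes (1.73%), 73 of them higher (0.583%) and 143 lower (1.14%) in the CDK9 line. The spike-in scale places the median gene at -0.08. Under TMM scaling, which sets the bulk of genes to no change and put the median at -0.01, 264 of 12973 genes were called (2.03%), 138 higher (1.06%) and 126 lower (0.971%). Both scalings called the same 190 genes in the same direction (1.52%), 73 higher and 117 lower (0.935%), and 180 of these code for protein. Fewer of the calls were large: 109 genes differed by more than 1 in log2 size (36 higher and 73 lower) and 37 by more than 2 (7 higher and 30 lower). Over all genes tested, the 3 and 3 libraries did not overlap for 2349 (18.8%). By edgeR on the spike-in scale, 1368 of the 12515 genes had an unadjusted p under 0.05, 310 higher and 1058 lower. The counts of that kind given for lists below are to be read beside it. Without replicate B of the CDK9 line 135 genes were called, and without replicate C 130. With the wild-type wells that received dTAG7 in place of DMSO as the reference 494 were called, of which 178 were among the 216.

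**Figure D1:**
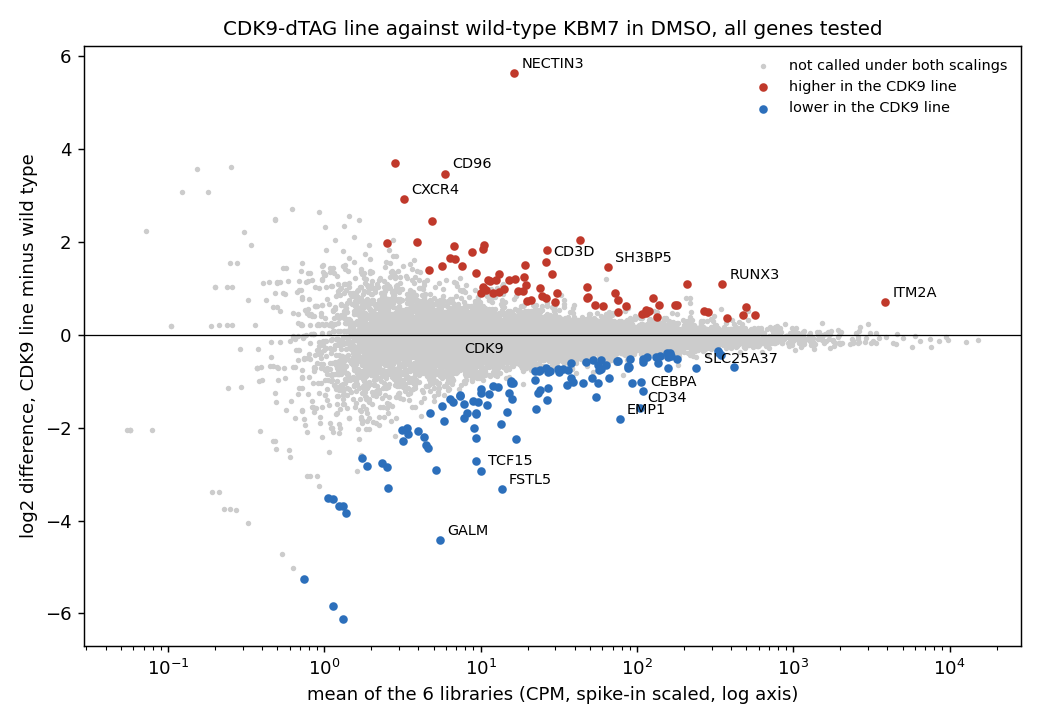
Log2 difference between the CDK9 line and wild type (vertical axis) against the mean CPM of the 6 libraries (horizontal, log axis) for each of the 12515 genes tested. Red points are the 73 genes called higher and blue points the 117 called lower under both scalings; NECTIN3 at 5.63 is the highest point, and the lowest blue points are genes with no or few counts in the CDK9 line, whose fitted values depend on a prior count.

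The transcript of the tagged gene comes before the rest. CDK9 mRNA (ENSG00000136807) had 7.83, 5.22 and 4.88 CPM in the CDK9 line, against 5.798, 11.4 and 7.53 CPM in wild type, so the groups overlapped. The difference was -0.51 ± 0.49 (edgeR adjusted p = 0.789), with a 95% interval of -1.46 to 0.44. At 10 to 24 counts per library, the data do not tell the values within that interval apart, and a 3' transcript count says nothing of the protein level. Its cyclin partner CCNT1 stood at 67.2 against 68.2 CPM in wild type, with a 95% interval of -0.28 to 0.22.

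The inhibitory side of P-TEFb showed no call. HEXIM1, which binds and inactivates P-TEFb and is often used as a readout of its activity, had 53.3, 44.3 and 40.0 CPM in the CDK9 line and 42.6, 59.0 and 56.3 CPM in wild type (-0.22 ± 0.18, adjusted p = 0.73, 95% interval -0.58 to 0.14). LARP7, which stabilises 7SK, differed by -0.06 (interval -0.25 to 0.12) and MEPCE, the 7SK capping enzyme, by -0.06 (-0.36 to 0.23). Among the 17 tested genes of P-TEFb and its partners, MLLT3 was called. MLLT3, a reader of acetylated histones in the super elongation complex and a fusion partner of MLL in leukaemia, had 28.98, 23.0 and 24.1 CPM in the CDK9 line and 36.5, 50.4 and 38.3 CPM in wild type (-0.73 ± 0.19, edgeR adjusted p = 0.023). The groups did not overlap, which holds for 18.8% of all genes tested. The MLLT3 call was lost without CDK9 line replicate B or C or wild-type replicate B (adjusted p = 0.147, 0.156 and 0.223), and with limma on the loess values (0.0595). The other 16 differences ran from -0.81 (ELL2) to 0.22 (AFF1), with a list median of -0.08 beside -0.08 over all genes.

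General transcription genes had no calls, where a share of 1.73% over all genes leaves few or none in lists of this size. By edgeR, none of 22 pausing and elongation factor genes (NELF, DSIF, PAF1 complex, FACT), 11 RNA polymerase II subunit genes and 32 Mediator subunit genes was called under the spike-in or the TMM scaling, nor by DESeq2, and 2, both of the Mediator list, had an unadjusted p under 0.05. Their medians were -0.05, -0.06 and -0.05 on the spike-in scale and 0.02, 0.01 and 0.03 under TMM. Among genes of the degrader machinery CRBN, the substrate receptor that dTAG7 engages, stood at 57.4 against 60.6 CPM in wild type, and FKBP1A at 408 against 377 CPM, neither called. The 1 call among the 9 tested genes of that list was IKZF1, described with the transcription factors.

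The largest rise belonged to NECTIN3, an immunoglobulin-like adhesion protein that binds nectins on neighbouring cells. NECTIN3 (ENSG00000177707, hg38 chr3:111070071-111275563, plus strand) had 28.98, 34.8 and 32.9 CPM in the CDK9 line, against 0.68, 0.48 and 0.66 CPM in wild type, or 225 counts in the 3 CDK9 line libraries together and 5 in the wild-type libraries. Every CDK9 line library lay far above every wild-type library, at a log2 difference of 5.63 ± 0.41 (edgeR adjusted p = 6.05e-16). The next gene on the same strand is CD96, a receptor of T and NK cells that binds the nectin-like protein PVR. CD96 (ENSG00000153283, chr3:111292719-111665750) had 9.40, 10.0 and 13.4 CPM in the CDK9 line and 0.34, 0 and 2.29 CPM in wild type (3.47 ± 0.57, adjusted p = 4.32e-05). The annotated CD96 gene starts 17.2 kb beyond the end of NECTIN3, with no tested gene between. The tested genes on either side, DZIP3 (23.4 against 24.1 CPM in wild type) and ABHD10 (50.9 against 51.5 CPM), differed by 0.01 each and were not called. DZIP3 ends at chr3:108694846 and ABHD10 starts at chr3:111979010, so DZIP3 is not a close neighbour.

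These upstream sequences are shown because the neighbours NECTIN3 and CD96 changed together and because GALM, described further on, was nearly off in the CDK9 line; each is the 250 bases before the RefSeq start (GRCh38.p14, plus strand, 5′ to 3′), with CG dinucleotides, the sites of DNA methylation, in capitals. They lie at chr3:111071566-111071815 for NECTIN3, chr3:111541947-111542196 for CD96 and chr2:38665864-38666113 for GALM. RefSeq places the start of CD96 249.5 kb downstream of the GENCODE 29 start given above.
NECTIN3: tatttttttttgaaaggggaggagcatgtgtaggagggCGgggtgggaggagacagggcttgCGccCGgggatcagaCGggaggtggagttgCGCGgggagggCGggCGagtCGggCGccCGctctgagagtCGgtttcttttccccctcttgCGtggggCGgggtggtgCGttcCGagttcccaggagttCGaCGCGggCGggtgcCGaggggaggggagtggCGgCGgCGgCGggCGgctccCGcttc
CD96: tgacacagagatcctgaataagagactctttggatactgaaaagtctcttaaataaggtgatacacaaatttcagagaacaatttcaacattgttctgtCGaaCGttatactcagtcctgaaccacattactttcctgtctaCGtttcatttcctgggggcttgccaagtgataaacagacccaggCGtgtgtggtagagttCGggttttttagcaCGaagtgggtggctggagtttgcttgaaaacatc
GALM: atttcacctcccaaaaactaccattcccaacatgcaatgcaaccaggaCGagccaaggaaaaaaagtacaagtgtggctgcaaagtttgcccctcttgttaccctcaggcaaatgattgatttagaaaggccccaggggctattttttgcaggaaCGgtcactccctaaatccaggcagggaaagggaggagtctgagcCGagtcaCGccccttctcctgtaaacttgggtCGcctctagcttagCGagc
The NECTIN3 window holds 27 CG dinucleotides, more than 68.8% of the 9124 tested genes with an entry in the promoter table, whose median is 21. The CD96 and GALM windows hold 6 each, more than 7.84% of those genes. The letters TGTGGT, a core motif of RUNX factors searched on both strands, occur in the CD96 window and in 7.28% of the 9124, and not in the other windows printed. A match of letters describes the window and is no measured binding site, and DNA methylation was not measured.

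The other large rises joined genes of several kinds. By a rule of size, the text names the 15 largest rises among genes called under both scalings, averaging 5 CPM or more and with the 2 groups apart, so the lack of overlap is part of the choice. EFHD1, a calcium-binding mitochondrial protein, had 68.2, 75.7 and 65.6 CPM in the CDK9 line, against 16.0, 19.03 and 16.4 CPM in wild type (2.03 ± 0.33, edgeR adjusted p = 3.19e-05). PIEZO2, a mechanically gated ion channel, had 14.1, 17.8 and 17.998 CPM, against 4.09, 3.33 and 5.57 CPM in wild type (1.93 ± 0.35). GBP1, an interferon-inducible GTPase, had 15.7, 8.26 and 8.85 CPM, against 2.73, 2.38 and 2.95 CPM in wild type (1.90 ± 0.37). Among other genes of the interferon response, edgeR called none of 23 tested on the spike-in scale, with a median of -0.19 and 6 at an unadjusted p under 0.05, while 1 was called by DESeq2 and 1, IRF1, under TMM (0.51). SYNE2, a nuclear envelope protein that links the nucleus to the cytoskeleton, rose by 1.82 ± 0.26, to 40.9 CPM against 11.9 in wild type. SH3BP5, an adaptor and exchange factor for RAB11, had 92.4, 90.4 and 103 CPM in the CDK9 line and 33.4, 41.4 and 30.5 CPM in wild type (1.46 ± 0.16, adjusted p = 2.23e-09). It had the smallest SE of the 15. The rest were SMIM14 (1.84), SYPL2 (1.78), CAND2 (1.65), PCDH7 (1.64), NDST3 (1.49) and IGFBP7 (1.47), at mean levels of 8.44 to 16.1 CPM in the CDK9 line, together with CD3D and TRDC, described with the lymphoid genes.

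Some of these calls rest on single libraries. CAND2 was no longer called without CDK9 line replicate C (adjusted p = 0.117) or wild-type replicate B (0.1) or C (0.0781), and PCDH7 without CDK9 line replicate B (0.0627) or wild-type replicate B (0.109). NDST3 was lost without CDK9 line replicate B or C or wild-type replicate A or C (0.0828 to 0.248), with limma on the loess values (0.16) and with the wild-type dTAG7 wells as reference, where its log2 difference was 0.74 (0.257). IGFBP7 was lost without CDK9 line replicate A or B or any wild-type replicate (0.0629 to 0.157), and by DESeq2 (0.0516).

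**Figure D2:**
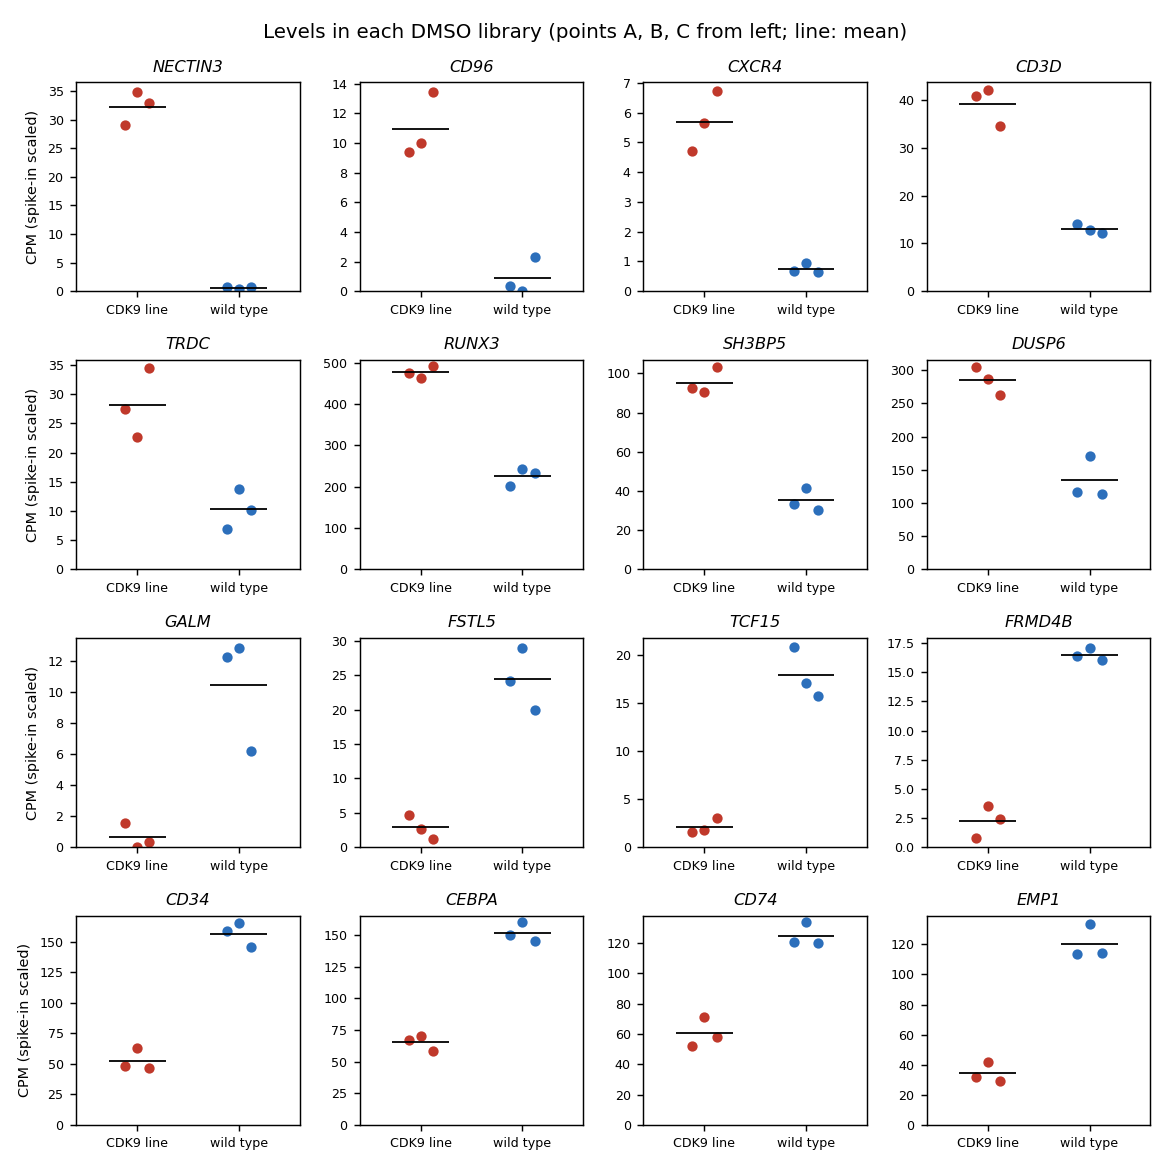
CPM on the spike-in scale in each library for 16 named genes, with the 3 CDK9 line libraries in red on the left and the 3 wild-type libraries in blue on the right of each panel, and the mean as a line. Each panel has its own axis from 0. In all 16 the groups do not overlap, which was a condition for naming some of them and holds for 18.8% of all genes tested. RUNX3 lies between 464 and 492 CPM in the CDK9 line and between 203 and 242 CPM in wild type.

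Among falls, some genes were nearly off in the CDK9 line. GALM (ENSG00000143891), the mutarotase of galactose breakdown, had 1.57, 0 and 0.31 CPM in the CDK9 line, against 12.3, 12.8 and 6.22 CPM in wild type. These are 3 counts against 82, a ratio of 23.2 (95% counting interval 7.65 to 115). FSTL5, a secreted follistatin-like protein, had 4.70, 2.61 and 1.22 CPM in the CDK9 line and 24.2, 29.02 and 20.0 CPM in wild type (-3.33 ± 0.33, edgeR adjusted p = 6.3e-11). TCF15, a basic helix-loop-helix transcription factor, had 1.57, 1.74 and 3.05 CPM, against 20.8, 17.1 and 15.7 CPM in wild type (-2.93 ± 0.32). FRMD4B, a scaffold protein of cell junctions, had 0.78, 3.48 and 2.44 CPM, against 16.4, 17.1 and 16.0 CPM in wild type (-2.72 ± 0.32). In each of these the highest CDK9 line library lay under the lowest wild-type library. The rule given for the rises chose the falls too, so this lack of overlap is part of the choice. It holds for 18.8% of all genes tested.

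Several of the 15 largest falls code for receptors and matrix or membrane proteins. GFRA1, the receptor for the growth factor GDNF, fell by 2.24 ± 0.30 to 5.66 CPM, against 28.1 in wild type, and NRP1, a co-receptor for semaphorins and VEGF, differed by -2.002 ± 0.365, with 3.74 CPM against 14.3 in wild type. EMP1, an epithelial membrane protein, was the most abundant of them, with 32.1, 41.7 and 28.98 CPM in the CDK9 line and 114, 134 and 114 CPM in wild type (-1.81 ± 0.27, edgeR adjusted p = 4.01e-06). MAOA, the mitochondrial monoamine oxidase, fell by 2.22 ± 0.30, TDRD9, a helicase of the piRNA pathway, by 1.93 ± 0.25, and MYOF, a membrane repair protein of the ferlin family, by 1.68 ± 0.27. MMP2, a gelatinase, fell by 1.86 ± 0.39 and was lost without CDK9 line replicate C (adjusted p = 0.0885). GPM6A (-2.90), GAS6-AS1 (-1.80), STK32B (-1.70) and NRXN2 (-1.70) complete the 15. GAS6-AS1 is antisense to GAS6, and whether the authors counted reads by strand is not given in the sources used here, so its counts are uncertain.

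At the bottom of the range, 12 of the genes called under both scalings had 3 counts or fewer in the CDK9 line libraries together, and 1 had so few in wild type. NEFL, a neurofilament protein, had 0 counts against 22 in wild type and was at least 6.21-fold lower, taking 3 counts over the group as the floor. SCN2A, a sodium channel (0 against 18 counts), was at least 5.08-fold lower and FCGR2A, an Fc receptor of myeloid cells (0 against 12 counts), at least 3.39-fold lower. Of the 8 Mediator lines in DMSO, only 2 had more than 3 counts of NEFL and 4 of SCN2A, while all 8 did for FCGR2A. The transcription factor gene EBF3 (1 against 19 counts) stood at a ratio of 16.1 (95% counting interval 2.56 to 669) and CAV1, the caveolae protein (1 against 17 counts), at 14.4 (upper bound 602). CRYBG1 ran the other way, with 36 counts in the CDK9 line against 3 in wild type, a ratio of 14.2 (4.47 to 71.9). These intervals cover counting error only.

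Genes of blood cell identity were moved in both directions. Of 29 tested hematopoietic transcription factor genes 2 were higher and 3 lower, beside 0.583% higher and 1.14% lower over all genes tested. The list median was -0.12 beside -0.08 over all genes. RUNX3, a Runt-domain factor of lymphoid and myeloid cells, had 475, 464 and 492 CPM in the CDK9 line, against 203, 242 and 232 CPM in wild type (1.08 ± 0.10, edgeR adjusted p = 2.86e-11). IKZF1, which codes for the lymphoid factor Ikaros, had 79.9, 73.9 and 67.7 CPM, against 44.0, 51.9 and 47.1 CPM in wild type (0.62 ± 0.15). The IKZF1 call was lost without CDK9 line replicate A or B or wild-type replicate A (adjusted p = 0.0642, 0.0522 and 0.0868), and with limma on the loess values (0.0564). CEBPA, the factor that drives granulocyte differentiation, had 67.4, 70.4 and 58.6 CPM in the CDK9 line and 150, 160 and 145 CPM in wild type (-1.22 ± 0.14, adjusted p = 1.02e-08). TAL1, a stem cell and erythroid factor, fell by 0.57 ± 0.11 to 60.5 CPM, against 91.4 in wild type. LMO2, the adaptor that binds TAL1, had 25.9, 25.2 and 25.9 CPM, against 38.2, 60.4 and 50.8 CPM in wild type (-0.94 ± 0.23, lost without CDK9 line replicate B or C or wild-type replicate B, adjusted p = 0.0671 to 0.127). RUNX1 (-0.42), SPI1 (-0.66), GATA2 (0.20), MYB (-0.18) and MYC (-0.86 ± 0.29, adjusted p = 0.131) were not called. MYC had 65.0, 62.6 and 48.2 CPM in the CDK9 line and 75.03, 134 and 107 CPM in wild type. These groups did not overlap, which holds for 18.8% of all genes tested. Among 15 HOX genes edgeR and DESeq2 called none, 4 had an unadjusted p under 0.05 and limma on the loess values called 1, with a median of -0.14. IKZF2, a relative of IKZF1, was called under TMM (0.57) and not on the spike-in scale (0.49, adjusted p = 0.117).

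Surface markers of progenitors changed as well. CD34, the sialomucin that marks hematopoietic stem and progenitor cells, had 47.8, 62.6 and 46.7 CPM in the CDK9 line, against 159, 165 and 145 CPM in wild type, the lowest p-value of all genes after that of NECTIN3 (-1.57 ± 0.14, edgeR adjusted p = 1.96e-12). CD44, the hyaluronan receptor, had 67.4, 70.0 and 73.2 CPM, against 145, 147 and 136 CPM in wild type (-1.02 ± 0.12). CXCR4, the chemokine receptor that keeps progenitors in the marrow, went against them with 4.70, 5.65 and 6.71 CPM, against 0.68, 0.95 and 0.66 CPM in wild type, which is 41 against 6 counts (2.92 ± 0.65, adjusted p = 0.00489, and 0.0585 without CDK9 line replicate C). Of 11 tested genes of this list 1 rose and 2 fell, with a median of -0.37, beside 1.73% called over all genes tested. ANGPT1, a ligand of the receptor TIE2, and ITGA4, an integrin chain, were called under TMM alone (-0.29 and 0.55). Of 24 adhesion and matrix genes CD44 and MMP2 fell and none rose on the spike-in scale, beside the same 1.73%. From bulk RNA, fewer cells that make a transcript and less of it per cell cannot be told apart.

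The lineage marker lists, all of them short, had at most 1 call each, beside 1.73% called over all genes tested. Among 8 tested lymphoid genes CD3D, a chain of the T cell receptor complex, was called, with 40.7, 42.2 and 34.5 CPM in the CDK9 line, against 13.98, 12.8 and 12.1 CPM in wild type (1.58 ± 0.24, edgeR adjusted p = 7.61e-06). TRDC, the constant segment of the T cell receptor delta chain, lies outside that list and had 27.4, 22.6 and 34.5 CPM, against 6.82, 13.8 and 10.2 CPM in wild type (1.51 ± 0.27). A noncoding gene, AC244502.1, spans TRDC on the opposite strand, and without a stated strand setting reads of either cannot be told apart. The summed CPM of the lymphoid list was 137 to 157 in the CDK9 line and 98.9 to 130 in wild type. CD3E (3.57 against 2.45 CPM in wild type), PAX5 (61.8 against 65.3) and EBF1 (15.2 against 15.5) were not called, CD3G and MS4A1 were under the filter, and 11 of the 21 list genes, such as CD2, CD7 and LCK, were not analysed here. In the erythroid list 1 of 14 tested genes fell, the mitochondrial iron importer SLC25A37 (168, 192 and 182 CPM, against 286, 331 and 282 CPM in wild type; -0.72 ± 0.12). In the megakaryocyte list 1 of 5 fell, the platelet protein kinase C substrate PLEK (29.7 against 61.3 CPM in wild type, -1.03 ± 0.15). None of 8 granulocyte and monocyte genes or 9 mast cell and basophil genes was called by edgeR under the spike-in or the TMM scaling, or by DESeq2, with medians of -0.30 and 0.20; 3 and 1 of them had an unadjusted p under 0.05. The MPO gene of granules stood at 1.10 against 3.65 CPM in wild type (adjusted p = 0.15).

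CD74 and CIITA, genes of MHC class II antigen presentation, were lower. CD74, the invariant chain that escorts MHC class II molecules, had 51.7, 71.3 and 58.0 CPM in the CDK9 line and 121, 134 and 120 CPM in wild type (-1.03 ± 0.12, edgeR adjusted p = 1.89e-08). CIITA, the coactivator that switches class II genes on, had 25.1, 26.96 and 25.6 CPM, against 59.3, 52.3 and 45.5 CPM in wild type (-1.01 ± 0.18). They were the 2 calls among 6 tested genes of the list, beside 1.73% called over all genes tested. Of the 22 list genes 13 were not analysed here and 3 were under the filter. B2M (-0.33), NLRC5 (0.27), ERAP1 (-0.16) and PSMB9 (0.49) were not called.

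Of 20 tested immediate early genes 2 were higher and 2 lower, beside 0.583% higher and 1.14% lower over all genes tested. The list median was 0.07. DUSP6, the phosphatase that ERK signaling induces and that dephosphorylates ERK, had 306, 287 and 263 CPM in the CDK9 line, against 117, 171 and 114 CPM in wild type (1.10 ± 0.18, edgeR adjusted p = 5.72e-05). JUND, an AP-1 subunit, stood at 212 against 136 CPM in wild type (0.64 ± 0.14). FOSL1, another AP-1 subunit, stood at 3.99 against 10.8 CPM in wild type (-1.29 ± 0.34), a call lost without CDK9 line replicate A or C or wild-type replicate B (adjusted p = 0.129, 0.194 and 0.351), in the fit of the 30 DMSO libraries (0.0549) and with the wild-type dTAG7 wells as reference (0.0698). TRIB1, a pseudokinase that promotes the breakdown of C/EBPα, fell by 1.13 ± 0.21 to 8.36 CPM, against 17.4 in wild type. EGR1 (0.31) and JUN (-0.44) were not called. Among 22 STAT5 and BCR-ABL signaling genes DUSP6, counted in both lists, and OSM were called, beside 1.73% over all genes tested. OSM, a cytokine that STAT5 induces, had 6.27, 9.56 and 8.54 CPM, against 0.68, 2.85 and 1.31 CPM in wild type (2.45 ± 0.51, adjusted p = 0.00187). CISH (0.13) and SOCS2 (0.11), other STAT5 targets, were not called, nor were BCR (-0.02) and ABL1 (-0.02). SOCS1 (1.27) and PIM2 (0.46) were called under TMM and not on the spike-in scale.

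Among the lists of growth and biosynthesis, only the MYC targets had edgeR calls on the spike-in scale, where 1.73% of all genes tested were called. Of 30 MYC targets in ribosome biogenesis all 30 had values under 0 on the spike-in scale and 29 under TMM, beside 64.5% and 51.2% of all genes tested, and the list median was -0.27 and -0.19. Only BOP1 (-0.36 ± 0.09) and CD3EAP (-0.46 ± 0.12) were called on the spike-in scale by edgeR, and neither under TMM (adjusted p = 0.218 and 0.0587). An unadjusted p under 0.05 was found for 16 of the 30, beside 1368 of 12515 genes tested. BOP1, a large-subunit assembly factor, stood at 196 against 251 CPM in wild type, and its call was lost without any of 5 of the 6 libraries, wild-type replicate C being the exception (adjusted p = 0.0559 to 0.136). CD3EAP, an RNA polymerase I subunit gene, stood at 134 against 185 CPM in wild type and was lost without CDK9 line replicate A or B or wild-type replicate A or B (0.0927 to 0.186), and with limma on the loess values (0.281). The 46 cytosolic ribosomal protein genes had a median of -0.16 (-0.08 under TMM), with 46 values under 0 on the spike-in scale and 43 under TMM, no edgeR call, 6 at an unadjusted p under 0.05 and 1 called by DESeq2. No gene was called by edgeR under either scaling, or by DESeq2, among 31 proteasome, 35 DNA replication, 19 heat shock, 22 cholesterol synthesis, 35 nuclear respiratory chain and 15 mitochondrially encoded genes. At an unadjusted p under 0.05 these lists held 0, 2, 2, 2, 1 and 0 genes in that order. The G2 and mitosis list (28 genes, median 0.06) had no call on the spike-in scale by edgeR or DESeq2, with 2 at an unadjusted p under 0.05, and CENPE and HMMR were called higher under TMM (0.39 and 0.34).

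A few enzymes and stress genes stood out of otherwise uncalled lists. DNMT3B, a de novo DNA methyltransferase, had 222, 223 and 213 CPM in the CDK9 line, against 138, 168 and 120 CPM in wild type (0.63 ± 0.12, edgeR adjusted p = 0.00073), the 1 call among 24 Polycomb and DNA methylation genes. DDIT4, an inhibitor of mTORC1, rose by 0.89 ± 0.22 to 40.1 CPM, against 21.8 in wild type (lost without CDK9 line replicate C, adjusted p = 0.128, or wild-type replicate C, 0.0866, and with limma on the loess values, 0.0531). GPI, a glycolytic enzyme, fell by 0.39 ± 0.09 to 291 CPM, against 380 in wild type (lost without CDK9 line replicate B or C or wild-type replicate A, adjusted p = 0.0526 to 0.0787, and under median-of-ratios scaling, 0.0507). The metallothionein genes MT2A, MT1F and MT1M were called under TMM (0.32, 0.37 and 0.43) and not on the spike-in scale. Of 24 p53 target genes edgeR and DESeq2 called none on the spike-in scale (1 at an unadjusted p under 0.05), and TP53INP1 (1.66) was called under TMM.

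**Figure D3:**
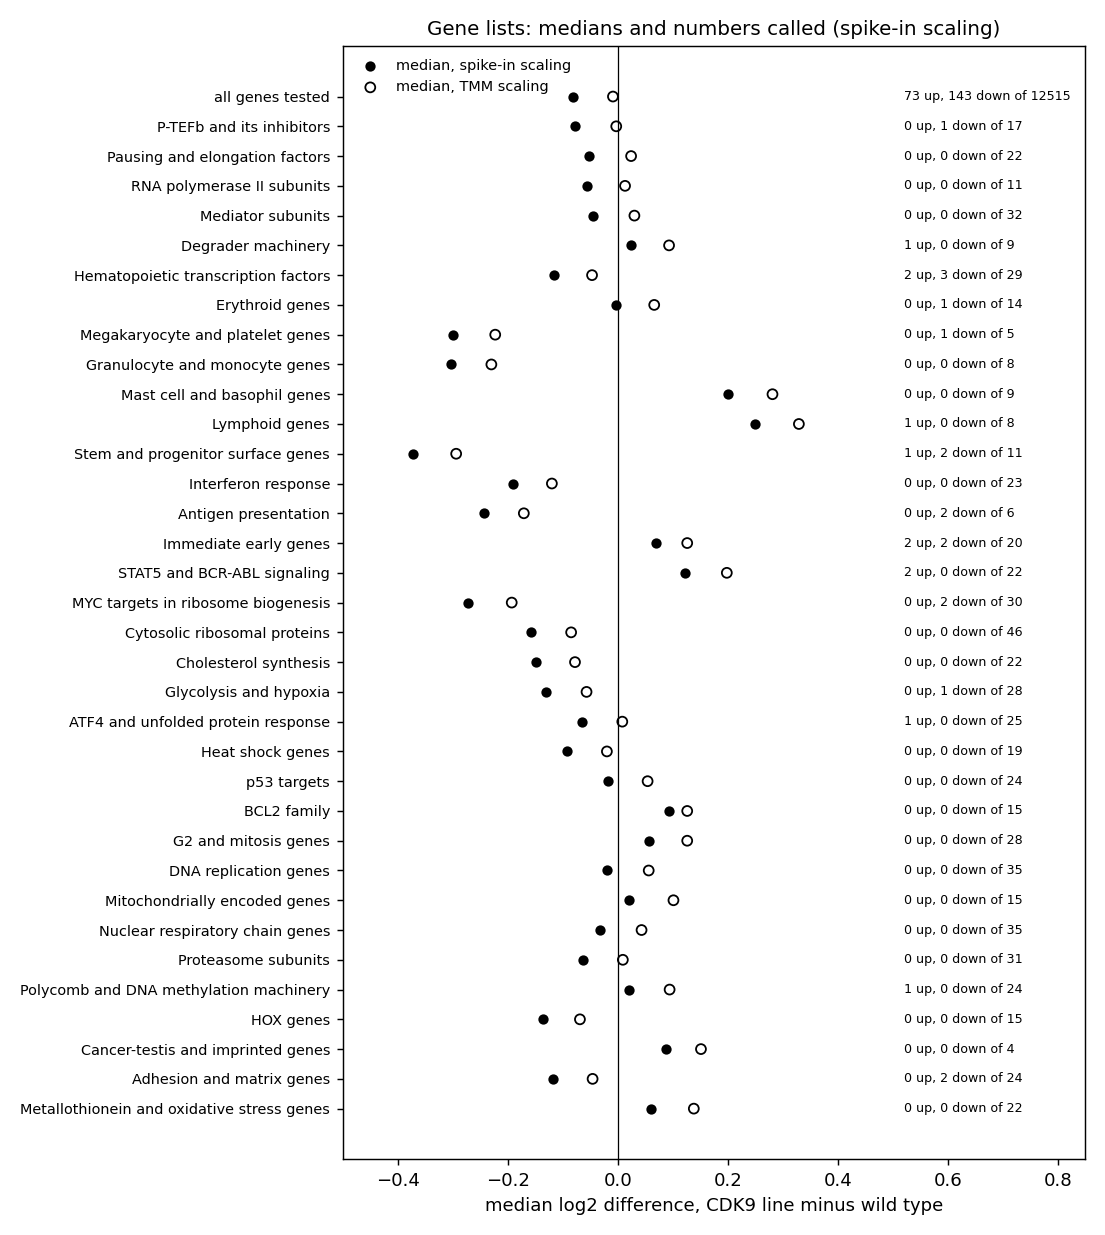
Median log2 difference between the CDK9 line and wild type (horizontal axis) for each gene list (rows), on the spike-in scale (filled points) and under TMM (open points), with the number of genes called higher and lower at the right. All genes tested are in the top row with medians of -0.08 and -0.01; stem and progenitor surface genes have the lowest spike-in median, -0.37, and lymphoid genes the highest, 0.25.

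The 8 Mediator lines show how these levels lie among lines that carry the same kind of tag. In the edgeR fit across all genes, the CDK9 line differed from the mean of the 8 Mediator lines for 701 of 12515 genes (5.6%), 209 higher (1.67%) and 492 lower (3.93%). Under TMM it was 785 of 12973 (6.05%), 407 higher (3.14%) and 378 lower (2.91%). Without CDK9 line replicate B 411 were called, and without replicate C 355. The Mediator comparison uses no wild-type library but the same 3 CDK9 line libraries as the comparison with wild type. Of the 216 genes called against wild type, 180 were called in the same direction against the Mediator lines (65 higher and 115 lower), 36 were not called and none was called in the opposite direction. Set against wild type on the spike-in scale, the Mediator lines themselves gave between 40 (MED10) and 1320 (MED12) called genes beside the 216 of the CDK9 line, comparisons that share the wild-type libraries.

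Among the 15 largest rises the CDK9 line had the highest mean of the 10 lines for 11, and for 6 all its libraries lay above all 27 libraries of the other lines: CD96, PIEZO2, GBP1, SYPL2, CD3D and SH3BP5. Among the 15 largest falls it was lowest for 10, with all its libraries below the other 27 for FSTL5, TCF15, FRMD4B, MMP2, GAS6-AS1 and STK32B. Both sets were chosen because the same CDK9 line libraries lay far from wild type, so the choice itself favours extreme ranks. No such counts were made over all genes tested or for the largest differences of another line. The counts describe these genes and do not measure how far the CDK9 line stands apart. SH3BP5 stood between 18.4 and 49.6 CPM in the 24 Mediator libraries (median 28.2), and the CDK9 line difference was 1.68 ± 0.11 (edgeR adjusted p = 6.31e-19). RUNX3 had a Mediator library minimum of 154.9 and a median of 187.7 CPM, below the 464 CPM of the lowest CDK9 line library (1.30 ± 0.07, adjusted p = 1.42e-22). CD34 had a Mediator library minimum of 89.2 and a median of 249.1 CPM, against 62.6 CPM in the highest CDK9 line library (-2.13 ± 0.12, adjusted p = 8.01e-22). CXCR4, DNMT3B, PLEKHA2 and ITM2A were likewise above the other 27 libraries in every CDK9 line library, and TAL1, LMO2, SLC25A37, MLLT3 and ESAM below them.

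Other differences were shared with 1 or more of the Mediator lines. NECTIN3 was as high in the MED26 line, at 34.6, 34.1 and 28.5 CPM, and stood at 4.06, 2.67 and 5.87 CPM in the MED31 line, while the remaining 6 Mediator lines averaged between 0.35 and 1.85 CPM. CD96 did not follow it there: it averaged 1.71 CPM in the MED26 line and 7.04 CPM in the MED31 line. GALM was also near 0 in the MED14 line (0.92, 1.27 and 0.32 CPM) and highest in the MED31 line (25.1 CPM). EFHD1 was higher in the MED26 line (95.6 CPM) than in the CDK9 line, and SYNE2 in the MED12 line (196 CPM). CD74 and CIITA averaged less in the MED14 line (42.1 and 24.5 CPM) than in the CDK9 line. The MED31 line averaged less than the CDK9 line for CD44 (55.6 CPM), EMP1 (20.6 CPM), GFRA1 (4.27 CPM) and NRP1 (3.55 CPM). GPM6A, a neuronal membrane glycoprotein, averaged 1.15 CPM in the CDK9 line, 0.89 to 2.78 CPM in the 8 Mediator lines and 9.28 CPM in wild type, so that its difference from wild type (-2.90 ± 0.57, edgeR adjusted p = 0.0008) stood beside one of -0.29 ± 0.63 from the Mediator lines (adjusted p = 0.878).

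Wild-type wells that received dTAG7 were outside the comparison and give wild-type levels under another compound. RUNX3 averaged 240 CPM there, CD34 163 CPM, SH3BP5 33.2 CPM, GPM6A 8.07 CPM and NECTIN3 0.96 CPM. For each of these the dTAG7 wells lay nearer to wild type in DMSO than to the CDK9 line.

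**Figure D4:**
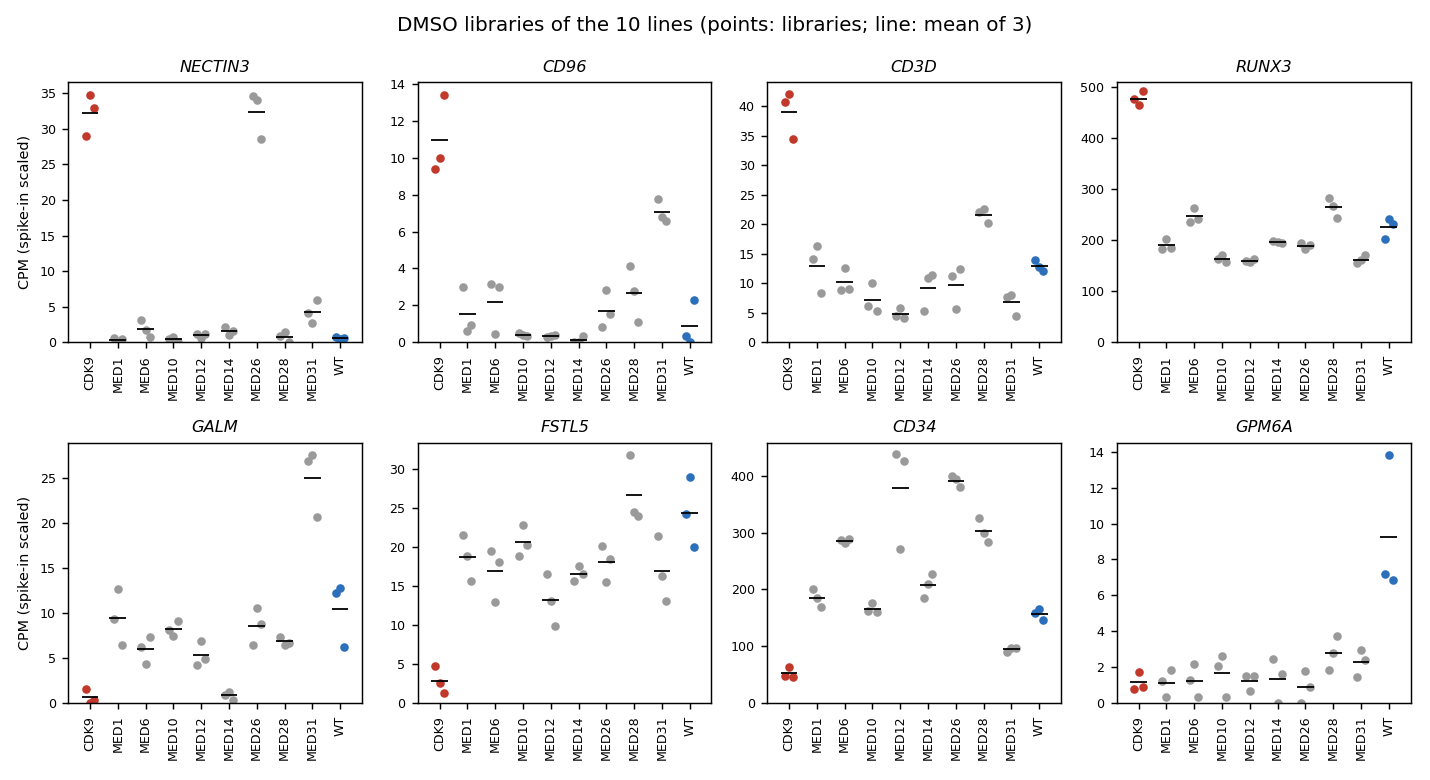
CPM on the spike-in scale in the DMSO libraries of the 10 lines for 8 genes, with the CDK9 line in red at the left, the 8 Mediator lines in grey and wild type in blue at the right; points are libraries and lines are means of 3. RUNX3 and CD3D are highest and CD34 and FSTL5 lowest in the CDK9 line, NECTIN3 is as high in the MED26 line, and GPM6A is high in wild type alone.

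The position of the called genes was looked at because lines can differ by gain or loss of chromosomes. Medians of the 23 chromosomes, taken under TMM over 10125 genes with a mean of at least 5 CPM, ran from -0.05 on chromosome 21 to 0.02 on chromosome X. The share of tested genes called under both scalings ran from 0.808 to 2.61% among chromosomes. Among the called genes with a name, 8 pairs of genes had starts within 300 kb of each other, and 7 of the 8 changed in the same direction. NRGN and ESAM, 12.74 kb apart on chromosome 11, both fell (-1.04 and -1.44), as did CYTL1 and STK32B, 36.86 kb apart on chromosome 4 (-2.14 and -1.70), and MYOF and FFAR4 on chromosome 10 (-1.68 and -2.84). SEMA7A and ARID3B on chromosome 15 rose (0.76 and 0.63), as did TRDC and the noncoding gene AC244502.1, which spans it on the opposite strand of chromosome 14 (1.51 and 0.47), and ZNF618 and COL27A1 on chromosome 9 went opposite ways (0.90 and -0.52). No test was made of the number of pairs.

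**Figure D5:**
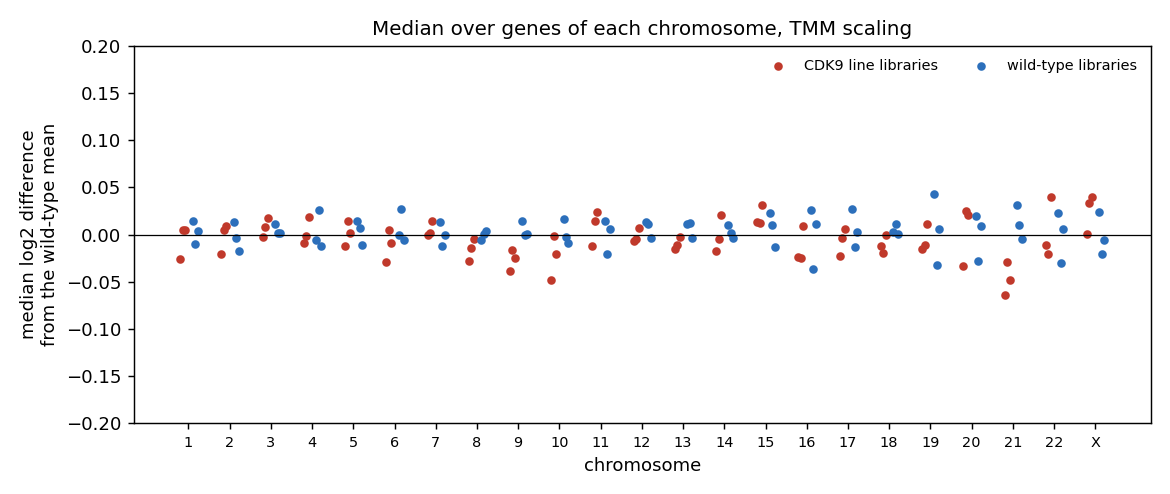
Median log2 difference from the wild-type mean (vertical axis) over the genes of each chromosome (horizontal axis), under TMM, in each CDK9 line library (red, left) and wild-type library (blue, right). All points lie within 0.1 of 0, and chromosome 21 has the lowest CDK9 line median.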

How the data were processed

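Read counts per gene and spike-in of the 66 libraries were made and deposited by the authors, and the tools that the submitters' processing notes list for them are HTSeq 0.6.0, bedtools 2.26.0 and STAR 2.5.2b, with hg38 as the build. A second deposited table holds signal that the authors normalized by loess, its settings not given in the sources used here; it served 1 alternative. Per the labels' protocols, equal spike-in amounts (37 ERCC and 7 SIRV entries) went into each lysate.

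All 66 libraries were fitted together on 22 group means with edgeR 4.0.16 in R 4.3.3 (quasi-likelihood F test, 44 residual degrees of freedom), with spike-in totals as library sizes, filterByExpr (12515 of 13331 genes) and Benjamini-Hochberg adjustment over all genes; TMM was fitted alongside (12973 genes). The SE is the log2 difference divided by the square root of F, and intervals in the text are the difference ± 1.96 SE or exact counting intervals. GENCODE 29 names matched 13297 genes. Gene lists were written from general knowledge; members, lists and tests were chosen with earlier results of these data known. Genes named are the 15 largest rises and falls, the 10 lowest p-values against the Mediator lines, up to 3 called members of each list in each direction and the P-TEFb list. Others were chosen after their values were seen: uncalled members of the lists, members called under TMM alone, genes with 3 counts or fewer in a group, and neighbours. Replicate letters did not pair the samples. The fit was tested on simulated data. Alternatives were scaling by TMM or by median-of-ratios factors, other count filters and sets of libraries, the replicate letter as a block, wild-type dTAG7 wells as reference, leaving out each library, DESeq2 1.42.0, and limma 3.58.1 on log2 of the loess signal plus 1. Figures used matplotlib 3.10.9. Upstream sequences came from RefSeq (GRCh38.p14), in a table that is not complete. Some genes are not reported here.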

Additional observations from a re-analysis of the deposited data

Results flagged for a closer look

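For 10 genes the CDK9 line differed from the mean of the 8 Mediator lines in DMSO by the test of that difference as well as from wild type. They are the 10 lowest p-values of the Mediator comparison among genes called in both, with log2 differences, CDK9 line minus Mediator lines, of 4.34 for NECTIN3, 3.38 for PIEZO2, 2.03 for CD3D, 1.69 for FAM111B, 1.68 for SH3BP5, 1.30 for RUNX3, 1.09 for PLEKHA2 and 0.93 for ITM2A on the higher side, and -3.57 for ESAM and -2.13 for CD34 on the lower side. The same 10 differed from wild type by 5.63, 1.93, 1.58, 0.83, 1.46, 1.08, 0.65, 0.70, -1.44 and -1.57 in that order. NECTIN3 averaged 32.24 CPM in the CDK9 line and 32.39 CPM in the MED26 line, so its difference from the Mediator mean does not hold against that line. ESAM, an endothelial and stem cell adhesion molecule, averaged 3.44 CPM in the CDK9 line, 222 CPM in the MED12 line and 9.96 CPM in wild type. Its call against wild type was lost without CDK9 line replicate A or B or wild-type replicate A or B (adjusted p = 0.053 to 0.146), and that of FAM111B without CDK9 line replicate B or C or wild-type replicate A or C (adjusted p = 0.0764 to 0.156) and with limma on the loess values (0.182). FAM111B had 25.9, 36.1 and 32.0 CPM in the CDK9 line and 34.8, 19.3 and 32.4 CPM in the MED12 line, so these 2 lines overlapped. Whether the tag or the history of each line goes with these differences cannot be told apart. Groups of 3 libraries were not looked at for outlying samples.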

How the results depend on the processing

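Against wild type 216 genes were called, and the alternatives with 3 exceptions gave 130 to 264. The exceptions were the 6 libraries alone under TMM, chosen after seeing the data (341, of which 202 higher and 139 lower), the wild-type dTAG7 wells as reference (494, with 178 of the 216 among them) and the 6 libraries alone with the replicate letter as a block (405, 196 shared); the cause was not tested. With the block in the fit of all 66 libraries 207 were called, and 673 for the CDK9 line against the 8 Mediator lines. The letters did not pair the samples: same-letter libraries correlated at -0.08 (A), 0.10 (B) and 0.04 (C), and in 1 of 3 cases the best match was the same letter. Leaving out each library in turn gave 130 to 187 calls against wild type, lowest without CDK9 line replicate C (130) or B (135), and 355 to 482 for the CDK9 line against the 8 Mediator lines (355 without C, 411 without B, 701 with all); fewer libraries were then tested. Rises depend on the scale more than falls, with 73 on the spike-in scale, 138 under TMM and 140 under median-of-ratios factors. Of the 30 largest differences 25 were called in every alternative that tested them, and 5 were lost in some leave-one-out fit. Of all 57 named and called genes 41 were called in every alternative that tested them, and no direction was reversed. The filter of 10 counts in each of the 6 libraries left some of these genes untested, NECTIN3 and GALM among them. The 6 libraries under TMM were not counted here, and a call under TMM was part of the choice of the 30. The ratio of endogenous to spike-in counts kept its sign, from -0.12 to -0.01.

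At 1342241 to 3387500 counts a library, genes under about 5 CPM rest on few counts. The comparison has 3 wells a group and 1 tagged line, and the number of cultures behind the wells is not given in the labels.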

Other observations

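Further called genes that no list or rule of size names were chosen after their values were seen. They form no tested group, and 1 of 8 tested genes of the lymphoid list was called. STAT4, a transcription factor of the interleukin response, had 18.02, 17.0 and 20.4 CPM in the CDK9 line and 8.87, 8.09 and 5.89 CPM in wild type (1.30 ± 0.27). TOX, a chromatin factor of T cell development, had 161, 162 and 158 CPM, against 85.6, 97.0 and 95.3 CPM in wild type (0.79 ± 0.12). SOX4, a factor of progenitor cells, rose by 0.51 ± 0.11 and PTPRC, which codes for the pan-leukocyte phosphatase CD45, by 0.37 ± 0.10. LMO4 rose by 0.90 ± 0.14 to 94.7 CPM, against 50.6 in wild type, while its relative LMO2 fell.

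Falls chosen in the same way form no tested group, and the granulocyte and monocyte list had 0 of 8 genes called by edgeR, under TMM or by DESeq2, with 3 at an unadjusted p under 0.05. IL6R, the interleukin 6 receptor, had 15.7, 9.57 and 10.1 CPM in the CDK9 line and 34.8, 32.3 and 34.1 CPM in wild type (-1.60 ± 0.24). VCAN, a matrix proteoglycan abundant in monocytes, fell by 1.28 ± 0.30, CFP, the complement protein properdin, by 1.44 ± 0.31, and the lymphocyte and monocyte surface antigen gene CD52 by 1.25 ± 0.21. HGF, the hepatocyte growth factor, stood at 14.6 against 33.4 CPM in wild type (-1.18 ± 0.24). ZEB2, a repressor of stem and myeloid cells, fell by 0.68 ± 0.12 and ZBTB16 by 1.52 ± 0.28. All genes in these paragraphs were called by edgeR under both scalings with no overlap between the 3 and 3 libraries.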
